A study of Mus musculus with 8 samples.

Results

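The nuclear-encoded subunits of the mitochondrial respiratory chain were examined in mouse liver. Members were all array probes outside the control set whose gene name began with any of 14 prefixes: Nduf (complex I), Sdha, Sdhb, Sdhc or Sdhd (complex II), Uqcr or Cyc1 (complex III), Cycs (cytochrome c), Cox4, Cox5, Cox6, Cox7 or Cox8 (complex IV) and Atp5 (complex V). This rule took 84 genes, measured by 117 probes, of 27962 gene names on the array, and used no expression value. Where a gene had several probes, its brightest over the 8 arrays stands for it, and 83 of the 84 genes had a detected probe, against 21304 of 27962 gene names on the whole array. The exception was Cox8c, a testis isoform, whose probe was well above background on 1 STD diet array and 1 atherogenic diet array.

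Liver RNA came from 4 male wild-type C57BL/6 mice administered a standard chow (STD) diet and 4 male wild-type C57BL/6 mice administered an atherogenic (ATH) diet, which the labels call a high-fat/high-cholesterol diet and which per the Methods also contained cholic acid. The labels give an age of 14 to 17 weeks at the start and 4 weeks of diet, and each mouse had an array of its own. The comparison asks which chain genes differ in hepatic mRNA between the diets. RNA was extracted from whole liver, so fewer cells of a type and less RNA per cell cannot be told apart.

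The respiratory chain passes electrons from NADH (complex I) or succinate (complex II) through ubiquinone to complex III, and through cytochrome c to complex IV, which reduces oxygen. Complexes I, III and IV pump protons across the inner mitochondrial membrane, and complex V, the ATP synthase, uses the gradient to make ATP. Hepatocytes are rich in mitochondria and depend on this chain for fatty acid oxidation, gluconeogenesis and urea synthesis. Most of its subunits are encoded in the nucleus, and a small set at the catalytic core is encoded in mitochondrial DNA. No probe on the array carried the name of a mitochondrially encoded subunit, so the values below describe the nuclear share of each complex.

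Values are log2 of the processed spot signal minus the 75th percentile of the same array, called scaled log2 signal here, and a log2 fold change is the ATH diet mean minus the STD diet mean. A gene was called at a Benjamini-Hochberg adjusted p under 0.05 by limma over all detected probes. Before scaling, the 75th percentile was higher on the ATH diet arrays by 0.45 on the log2 scale, and 10 spike-in probes gave a median shift of 0.14. After scaling, the median log2 fold change of all detected genes was -0.15, so changes are also given relative to that value. Genes of higher signal had lower medians, as described below. Each diet had a slide of its own, so effects of slide and of diet cannot be told apart here. The number of arrays limits the precision. The tissue label was checked by 11 hepatocyte markers, all of them detected, whose summed linear scaled signal was 3480 to 3540 on the STD diet and 2240 to 3140 on the ATH diet. Macrophage markers (11 of 11 detected) summed to 60.0 to 81.4 on the STD diet and 114 to 614 on the ATH diet. The highest sums were on ATH diet arrays 3 and 4 (564 and 614, mostly Lyzs and Marco). Singly, Clec4f, Mrc1 and Vsig4 did not have arrays 3 and 4 as their highest pair, and the rest of the list did. Of these 11 markers 5 rose, or 3 with the replicate block, against 3.53% of all detected genes called higher. Stellate cell markers summed to 12.6 to 15.7 and 18.6 to 39.6 (1 of 8 rose, Col3a1). Lymphocyte markers summed to 1.07 to 1.42 and 0.947 to 3.27, with 0 of 8 called by limma. At an unadjusted p under 0.05 by limma there were 4 (Cd3e lower, Cd3d, Cd3g and Cd8a higher), against 6339 of 21304 detected genes. Brown fat markers summed to 60.2 to 103 and 41.5 to 76.3. Their sum was nearly all Elovl3 (mean scaled log2 signal 6.26 and 5.65), as Cidea was at -2.73 and -3.26 and Ucp1 was not detected.

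Promoter sequences of 6 members are shown because chain genes are known to share binding letters for nuclear respiratory factors, and because most members lay lower together in these livers. Sequences are the 250 bases before the transcription start in the RefSeq promoter table, which held 68 of the 84 members in 73 windows. Uqcrc1 and Atp5e are the called members that the table holds, and Sdha, Sdhd, Cox6a1 and Cycs are examples, from complexes II and IV and the carrier, whose window holds the NRF1 letters. Capitals mark the letters searched on both strands: GCGCANGCG for NRF1, CCGGAAG for ETS factors such as GABPA, AAGATGGC for YY1, TCAAGGTCA for ERR and CCAAT.
Uqcrc1, GRCm38.p6 chr9:108936398-108936647, plus strand: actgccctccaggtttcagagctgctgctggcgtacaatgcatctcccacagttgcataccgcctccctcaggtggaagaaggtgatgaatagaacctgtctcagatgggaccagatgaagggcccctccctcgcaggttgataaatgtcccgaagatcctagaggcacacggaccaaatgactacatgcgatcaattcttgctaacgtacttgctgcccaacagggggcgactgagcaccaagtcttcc
Atp5e, GRCm38.p6 chr2:174464102-174464351, minus strand: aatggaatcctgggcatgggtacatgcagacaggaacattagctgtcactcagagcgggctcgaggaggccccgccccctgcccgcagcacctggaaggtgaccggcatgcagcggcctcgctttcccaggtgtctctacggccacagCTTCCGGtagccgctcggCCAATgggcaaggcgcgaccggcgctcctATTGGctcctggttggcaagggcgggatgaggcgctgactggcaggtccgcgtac
Sdha, GRCm38.p6 chr13:74350241-74350490, minus strand: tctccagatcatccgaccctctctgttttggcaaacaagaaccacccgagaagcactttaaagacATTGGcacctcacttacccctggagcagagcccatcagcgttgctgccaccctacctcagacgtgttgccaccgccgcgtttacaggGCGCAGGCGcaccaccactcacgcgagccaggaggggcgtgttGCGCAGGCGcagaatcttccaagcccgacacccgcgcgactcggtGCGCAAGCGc
Sdhd, GRCm38.p6 chr9:50603850-50604099, minus strand: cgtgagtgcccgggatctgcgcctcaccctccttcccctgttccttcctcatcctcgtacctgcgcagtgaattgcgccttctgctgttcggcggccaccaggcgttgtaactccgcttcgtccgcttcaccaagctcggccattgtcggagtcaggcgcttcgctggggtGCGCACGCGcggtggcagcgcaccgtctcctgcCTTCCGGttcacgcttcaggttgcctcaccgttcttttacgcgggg
Cox6a1, GRCm38.p6 chr5:115348959-115349208, minus strand: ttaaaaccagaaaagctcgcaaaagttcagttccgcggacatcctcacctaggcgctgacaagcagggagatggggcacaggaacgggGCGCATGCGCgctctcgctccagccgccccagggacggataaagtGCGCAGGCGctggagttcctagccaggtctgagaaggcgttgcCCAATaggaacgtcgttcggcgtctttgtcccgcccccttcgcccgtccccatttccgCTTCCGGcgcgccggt
Cycs, GRCm38.p6 chr6:50566570-50566819, minus strand: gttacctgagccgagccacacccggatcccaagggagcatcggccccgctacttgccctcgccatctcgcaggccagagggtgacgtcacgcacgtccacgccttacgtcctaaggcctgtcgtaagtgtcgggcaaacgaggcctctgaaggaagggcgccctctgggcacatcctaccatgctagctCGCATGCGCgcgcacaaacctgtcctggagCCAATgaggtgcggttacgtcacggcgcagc

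The NRF1 letters were found in 16 of the 73 member windows (21.9%), against 5.16% of all 32851 promoter windows of the same length. The ETS letters were found in 17.8% of member windows against 6.91% of all windows, the CCAAT letters in 41.1% against 33.8%, the YY1 letters in 1.37% against 1.56%, and the ERR letters in 1.37% against 0.387%. The median GC content was 56.4% over member windows and 52.4% over all windows. Sdha held the NRF1 letters at 3 places, and in Cox6a1 a match on each strand overlapped. Uqcrc1 held none of the letters searched, and Atp5e held the ETS letters once and CCAAT at 2 places. Among the 68 detected members in the table, the 15 with the NRF1 letters had a median log2 fold change of -0.40 (range -0.54 to -0.08), and the 53 without them had a median of -0.43 (range -0.64 to -0.01). These windows describe letters only, and no binding was measured.

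With this scaling, nearly all detected chain genes lay lower on the ATH diet, by a small and even amount. The log2 fold change was below 0 for 82 of 83 detected members, and 78 of 83 lay below the median of all genes. The median member had a log2 fold change of -0.43, a level 1.34-fold lower, with quartiles of -0.49 and -0.35. Over all detected genes, 14097 of 21304 were below 0, the median was -0.15 and the quartiles were -0.38 and 0.10. Members were therefore shifted by -0.28 relative to all genes. The SD of the log2 fold change was 0.24 across members and 0.57 across all genes, most of which had a lower signal than the members. At a mean scaled log2 signal of 4 to 6 it was 0.12 across members and 0.41 across other genes. At 6 to 8 it was 0.09 and 0.41, and below 0, with 4 members, it was 0.95 and 0.62. Without the restricted isoforms and the genes that are not subunits, the SD across members was 0.11.

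**Figure D1:**
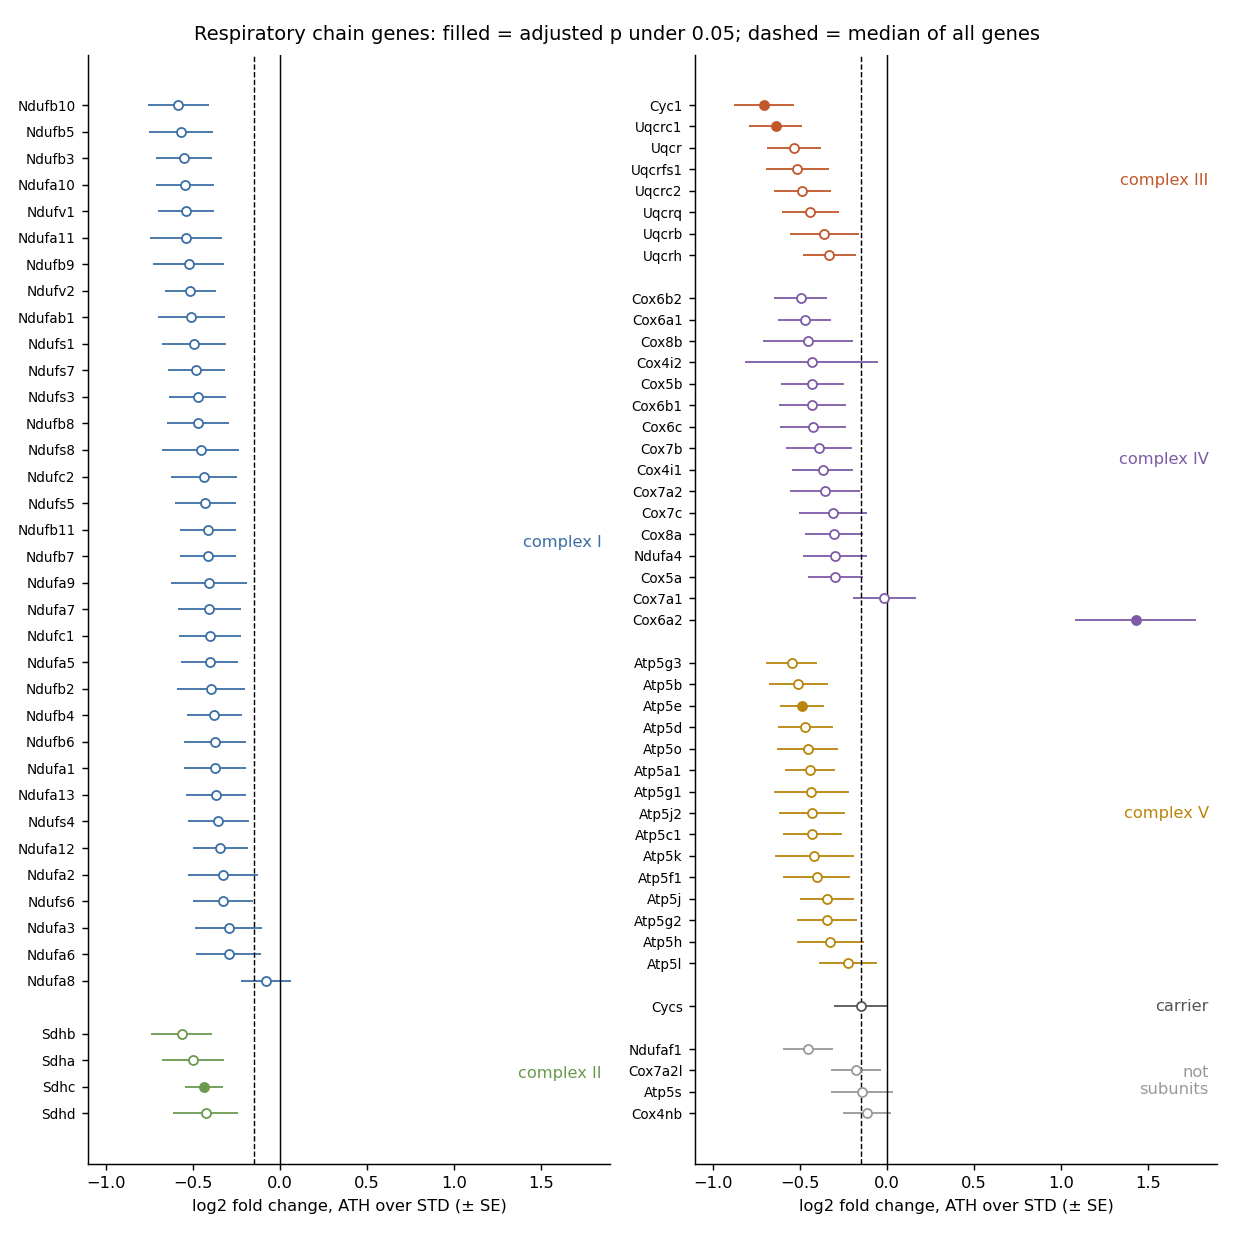
Log2 fold change (ATH over STD diet, horizontal axis) of detected members by complex, with bars for the SE from limma; filled points passed an adjusted p of 0.05 and the dashed line is the median of all genes at -0.15. All points drawn but Cox6a2 lie below 0, and most lie left of the dashed line.

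Few members passed the test singly. Of the 83 detected members, 5 fell (6.02%), against 5.25% of all detected genes called lower, so the share called is near the background. Cyc1, Uqcrc1, Atp5e and Sdhc were among them and are described below. A single member rose, Cox6a2, where 3.53% of all detected genes were called higher. In 35 of 83 members (42.2%) all ATH diet arrays lay below all STD diet arrays, against 14.4% of all detected genes, and in 1 member all ATH diet arrays lay above, against 6.74%. With the replicate number as a block 0 members were called. Of all detected genes, 506 of the 1118 called lower and 326 of the 753 called higher were also called with the block. The count called lower was 0 without STD diet array 1, 3 or 4 or without ATH diet array 3 or 4. It was 1 without STD diet array 2 and 2 without ATH diet array 1, and it rose to 15 without ATH diet array 2. The share of all genes called in each of those fits is not given here, so these counts have no background beside them.

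Most members gave a bright signal, and bright genes as a class also lay lower on the ATH diet. Genes outside the chain with a mean scaled log2 signal of 4 to 6 had a median log2 fold change of -0.25 (1149 genes), and the 34 members in that range had a median of -0.41. Quartiles in that range were -0.43 and -0.11 for other genes and -0.48 and -0.35 for members. Between 6 and 8, other genes had a median of -0.30 (401 genes) and the 30 members -0.42. Above 8, the medians were -0.42 for 90 other genes and -0.47 for 3 members. Within those ranges 31 of 34, 28 of 30 and 3 of 3 members lay below the median of the other genes. None of the member spots was saturated on any array. The part of signal level in the shift was not tested further.

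**Figure D2:**
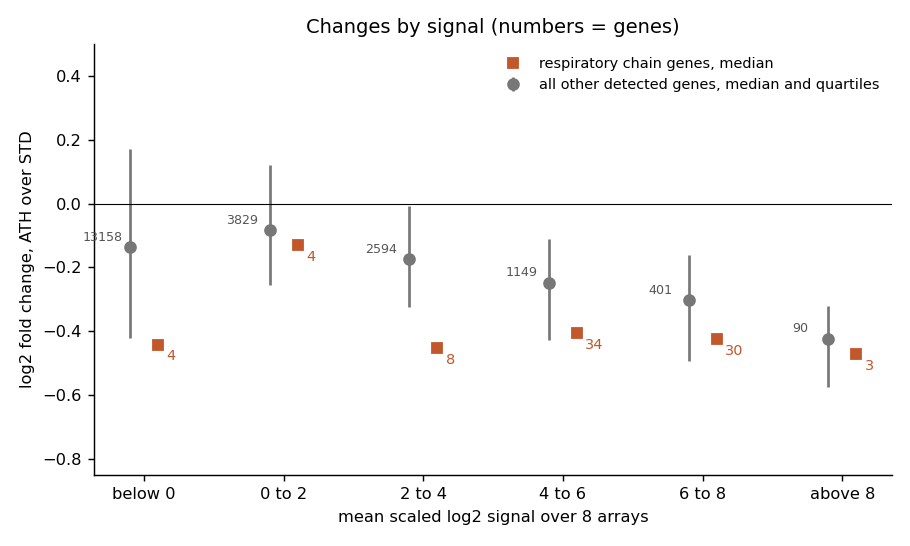
Median log2 fold change (ATH over STD diet, vertical axis) by mean scaled log2 signal over the 8 arrays (horizontal axis), for members (squares) and all other detected genes (circles, bars for the quartiles), with the number of genes printed beside each point. Other genes run from -0.08 at a signal of 0 to 2 down to -0.42 above 8, and the member medians lie below them in each range.

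The direction against 0 depended on the scaling. With spike-in scaling the median member had a log2 fold change of -0.12 and all genes had 0.16. Without scaling the median member was at 0.02, with 31 members below 0 and 52 above, and all genes were at 0.30. Both differ from the reported scaling by a constant for each array, so the position of members relative to all genes cannot change with them. With quantile normalization the medians drew together, to -0.12 for members and -0.04 for all genes, and 63 of 83 members lay below the median of all genes.

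**Figure D3:**
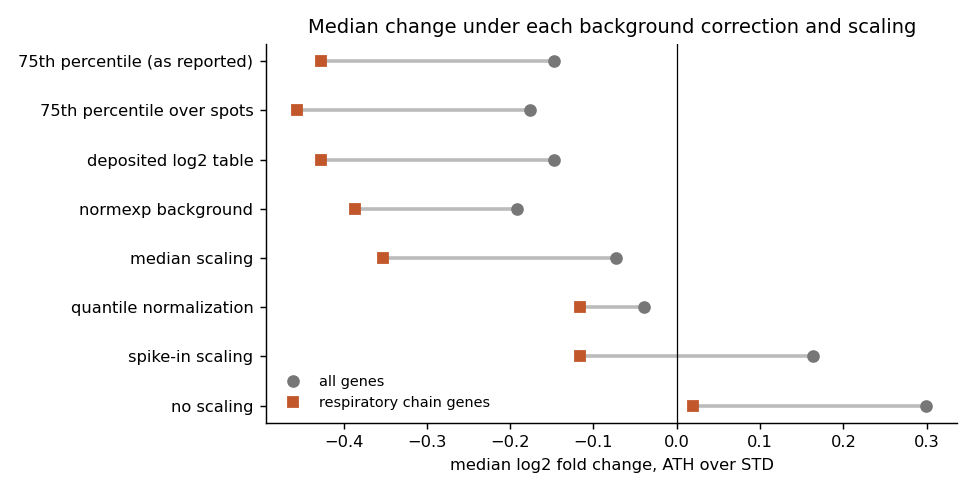
Median log2 fold change (ATH over STD diet, horizontal axis) of members (squares) and of all genes (circles) under each background correction or scaling (rows), joined by a grey line. Members lie left of all genes in every row, by 0.28 with the 75th percentile and by 0.08 with quantile normalization, and they lie just right of 0 at 0.02 without scaling.

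The ATH diet livers did not share the shift equally. The median of the chain minus the median of all genes on the same array, which no scaling by a constant can alter, was 7.34, 7.51, 7.27 and 7.23 on STD diet arrays 1 to 4. On ATH diet arrays 1 to 4 it was 7.06, 7.23, 6.56 and 6.45. ATH diet arrays 3 and 4 were thus well below every STD diet array, whereas ATH diet arrays 1 and 2 lay just below the lowest of them. The chain median minus the all-gene median differed by -0.51 between the diet means. It compares medians of signal, whereas the -0.28 given above compares medians of log2 fold changes. ATH diet arrays 3 and 4 were the lowest pair of all 8 arrays in 79 of 83 members (95.2%), against 30.5% of all genes. Among members, 82 lay below all STD diet values on ATH diet array 3 and 81 on array 4, compared with 55 on array 1 and 39 on array 2. Of all detected genes, 49.0% did so on array 3, 51.2% on array 4, 31.6% on array 1 and 29.5% on array 2. Members accordingly spread more on the ATH diet, with a median SD of 0.33 against 0.11 on the STD diet, while all genes had 0.28 and 0.20. STD diet array 2 gave the highest value of all arrays in 63 of 83 members, against 2760 of 21304 detected genes. Leaving out an ATH diet array moved the median member from -0.43 to -0.49 without array 1, -0.53 without array 2, and -0.32 without array 3 or array 4. Arrays 3 and 4 also held the highest macrophage marker sums (mostly Lyzs and Marco) and the lowest hepatocyte marker sums (2520 and 2240, mostly Alb and Fgb). The part of these in the chain values was not tested.

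**Figure D4:**
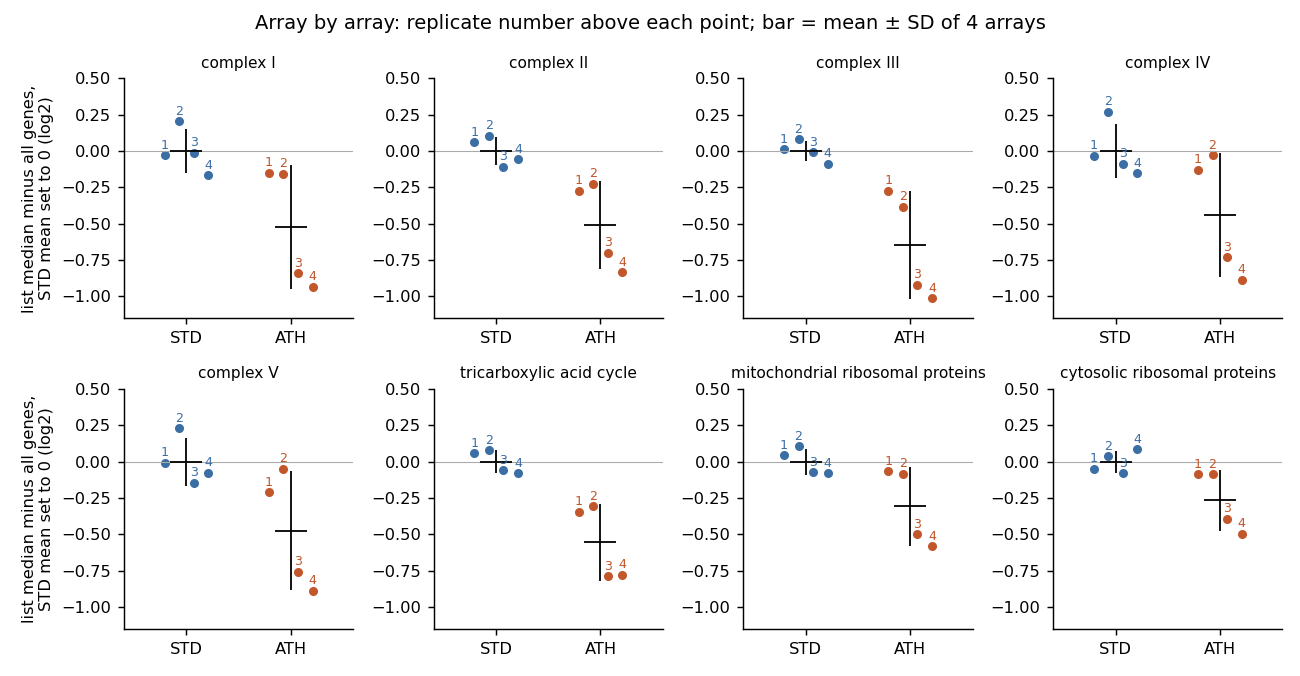
Median scaled log2 signal of each complex and of 3 other lists minus the median of all genes on the same array (vertical axis, log2, with the mean of the STD diet arrays set to 0), by diet (horizontal axis). Points are single arrays with their replicate number, and bars are the mean ± SD of 4 arrays. In every panel ATH diet arrays 3 and 4 lie lowest, and in complexes I to V ATH diet arrays 1 and 2 lie nearer to the STD diet arrays.

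Complex I, the NADH dehydrogenase, is the largest complex, and all 35 of its measured genes were detected. All 35 had log2 fold changes below 0, with a median of -0.41 (-0.27 relative to all genes) and quartiles of -0.51 and -0.37. In 14 of 35 members (40%) all ATH diet arrays lay below all STD diet arrays, against 14.4% of all detected genes. No member of complex I rose. The core subunits, which include the carriers of the flavin and the iron-sulfur clusters, had a median of -0.49 over 7 genes, and the 28 accessory subunits, which surround the core, had a median of -0.40. All ATH diet values lay below all STD diet values in 6 of the 7 core genes and in 8 of the 28 accessory genes.

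The core subunits of complex I described here did not pass the test. Ndufv1, which binds NADH and the flavin, was at 6.43, 6.42, 6.39 and 6.34 on the STD diet and 6.16, 6.07, 5.61 and 5.58 on the ATH diet (log2 fold change -0.54, adjusted p = 0.0697 by limma). Ndufv2, its iron-sulfur partner, had -0.51 (adjusted p = 0.0642 by limma). Ndufs1, the largest iron-sulfur subunit, had -0.49. Ndufs7, which carries the last cluster before ubiquinone, had -0.48, Ndufs3 had -0.47 and Ndufs8, another iron-sulfur subunit, had -0.45. Ndufs8 alone among the core subunits overlapped between diets, with ATH diet array 1 at 2.91 within the STD diet range of 2.72 to 3.09.

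Accessory subunits of complex I ranged from Ndufb10 at -0.58 and Ndufb5 at -0.57 to Ndufa8 at -0.08. Ndufa8 was the member of complex I nearest to 0, with 4.46, 4.61, 4.41 and 4.63 on the STD diet and 4.63, 4.65, 4.24 and 4.27 on the ATH diet. Its ATH diet arrays 1 and 2 were at the top of the STD diet range and arrays 3 and 4 below it. Ndufa13, an accessory subunit also known as Grim19, had -0.36.

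Complex II, succinate dehydrogenase, is the member of the chain shared with the tricarboxylic acid cycle. All 4 of its genes were measured, and their median log2 fold change was -0.47 (-0.32 relative to all genes). All ATH diet arrays lay below all STD diet arrays in 3 of 4 genes, against 14.4% of all detected genes. Sdhc, a membrane anchor that holds the heme with Sdhd, fell. It was at 4.56, 4.38, 4.52 and 4.54 on the STD diet and 4.15, 4.11, 4.04 and 3.97 on the ATH diet. The 4 ATH diet livers lay close together, and all were below the STD diet range. The log2 fold change was -0.43 ± 0.11 (SE) with an adjusted p of 0.0476 by limma (0.0729 with the replicate block).

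Sdhb, the iron-sulfur subunit, had a larger mean difference and a wider spread. It was at 5.99, 6.06, 5.87 and 5.85 on the STD diet and 5.69, 5.65, 5.06 and 5.12 on the ATH diet, which gave a difference of -0.56 (adjusted p = 0.0798 by limma). Sdha, the flavoprotein that oxidizes succinate, had -0.50, and Sdhd, the other anchor, had -0.42. Neither passed the test.

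Complex III, the cytochrome bc1 complex, had a median log2 fold change of -0.50 over 8 genes (-0.35 relative to all genes). All 8 genes were below the median of all genes, and 2 fell (25%, against 5.25% of all detected genes). In 6 of 8 all ATH diet arrays lay below all STD diet arrays, against 14.4% of all detected genes. Cyc1 encodes cytochrome c1, which hands electrons to cytochrome c. It was at 6.37, 6.36, 6.48 and 6.36 on the STD diet and 6.14, 5.73, 5.45 and 5.43 on the ATH diet. The STD diet values were nearly equal, and every ATH diet liver lay below them. Its log2 fold change of -0.71 ± 0.17 (SE), 1.63-fold lower, was the largest fall among members (adjusted p = 0.0428 by limma, 0.0649 with the replicate block).

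Uqcrc1, a core protein on the matrix side, was at 6.27, 6.17, 6.32 and 6.03 on the STD diet and 5.61, 5.89, 5.37 and 5.37 on the ATH diet. Its log2 fold change was -0.64 ± 0.15 (SE), 1.56-fold lower, with an adjusted p of 0.0406 by limma (0.0601 with the replicate block). A second Uqcrc1 probe gave -0.69 (adjusted p = 0.0207 by limma). The other core protein, Uqcrc2, had -0.49, and Uqcrfs1, the Rieske iron-sulfur protein, had -0.51, and neither passed the test. Uqcrq, a small subunit near the ubiquinone site, had -0.44 and likewise did not pass.

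Cycs, the mobile carrier cytochrome c, which also acts in apoptosis, stood closer to genes in general than its neighbors in the chain. It was at 5.66, 5.88, 5.62 and 5.69 on the STD diet and 5.76, 5.83, 5.35 and 5.32 on the ATH diet. ATH diet arrays 1 and 2 were within the STD diet range, and arrays 3 and 4 were below it. Its log2 fold change was -0.15 (adjusted p = 0.561 by limma), at the median of all genes. Genes outside the chain in its signal range, 4 to 6, had a median of -0.25. The other 2 Cycs probes gave -0.23 and -0.20. With spike-in scaling or quantile normalization the Cycs change was 0.16, above 0.

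**Figure D5:**
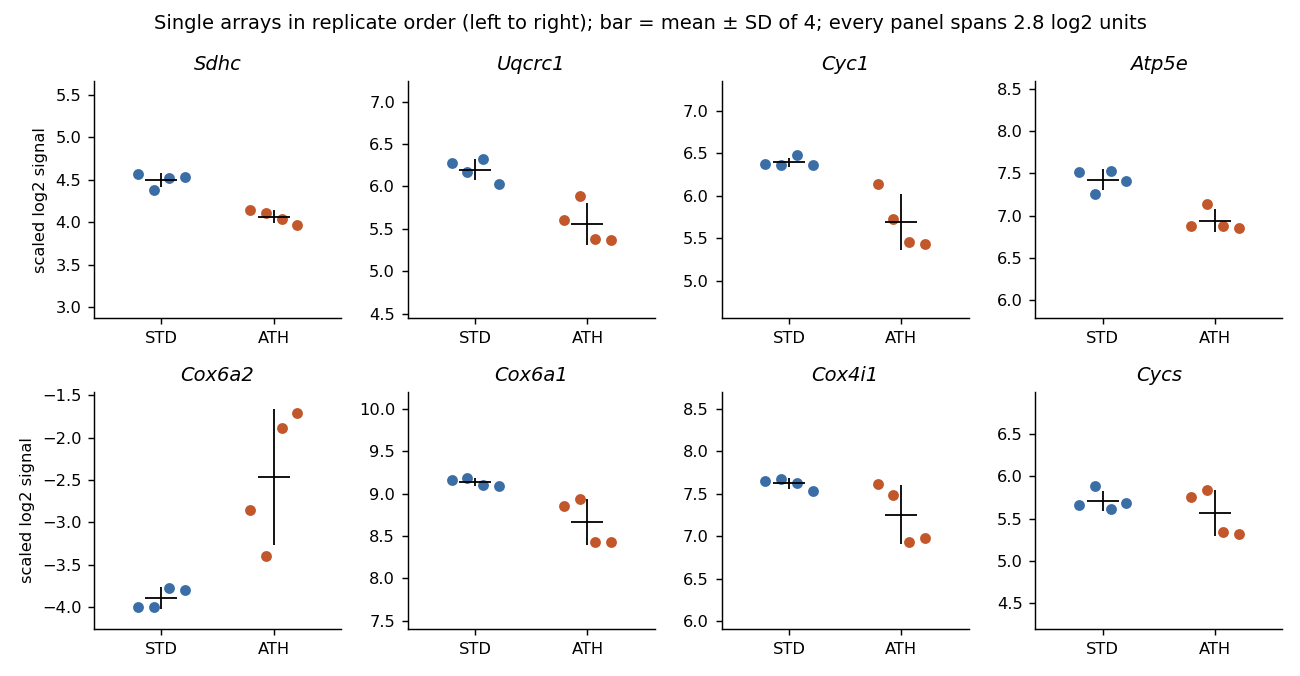
Scaled log2 signal (vertical axis, 2.8 log2 units in every panel) of Sdhc, Uqcrc1, Cyc1, Atp5e and Cox6a2, which were called, and of Cox6a1, Cox4i1 and Cycs, which were not, on the STD and ATH diets (horizontal axis). Points are single arrays in replicate order and bars are the mean ± SD of 4 arrays. Sdhc has 4 ATH diet values close together, whereas in Cox4i1 and Cycs ATH diet arrays 3 and 4 lie below the others.

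Complex IV, cytochrome c oxidase, was represented by 17 genes, of which 16 were detected. The 11 subunits of the usual liver forms, Ndufa4 included, had a median log2 fold change of -0.37, with a range of -0.47 to -0.30. None of the 11 passed the test. In 3 of the 11 all ATH diet arrays lay below all STD diet arrays, against 14.4% of all detected genes. Cox4i1, the regulatory subunit that binds ATP, was at 7.65, 7.68, 7.63 and 7.53 on the STD diet and 7.62, 7.49, 6.93 and 6.98 on the ATH diet. The first ATH diet liver was within the STD diet range, and arrays 3 and 4 lay lowest. The log2 fold change was -0.37 (adjusted p = 0.206 by limma; -0.26 to -0.49 when 1 array was left out). Cox5a and Cox5b, subunits that contact the catalytic core, had -0.30 and -0.43. Cox6a1, the liver form of subunit VIa, was at 9.16, 9.18, 9.10 and 9.09 on the STD diet and 8.85, 8.94, 8.43 and 8.43 on the ATH diet (log2 fold change -0.47, adjusted p = 0.0852 by limma).

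Cox6a2, the form of the same subunit known from heart and skeletal muscle, rose. It was at -4.00, -4.00, -3.77 and -3.80 on the STD diet and -2.86, -3.40, -1.88 and -1.71 on the ATH diet. All 4 ATH diet livers were above the STD diet range, and arrays 3 and 4 were the highest. The log2 fold change was 1.43 ± 0.35 (SE), 2.69-fold higher, with an adjusted p of 0.0431 by limma (0.0511 with the replicate block). The adjusted p was between 0.00767 and 0.107 when 1 array was left out and stayed under 0.05 only without ATH diet array 2. With normexp background correction the log2 fold change was 0.65, less than with the processed signal. Its signal was low but well above background on all 8 arrays. Of the muscle markers, Ckm and Mb were not detected. The 4 detected (Acta1, Myh4, Tnnt3 and Tnnc2) had log2 fold changes of -0.56 to -0.36. The muscle list summed to 0.425 to 0.573 on the STD diet and 0.303 to 0.421 on the ATH diet. Macrophage marker sums were highest on arrays 3 and 4, mostly through Lyzs and Marco. The part of muscle or macrophage cells in the Cox6a2 values was not tested.

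The remaining restricted isoforms of complex IV did not pass the test. Cox6b2, a testis form, was at -2.40, -2.32, -2.35 and -2.38 on the STD diet and -3.00, -3.08, -2.89 and -2.46 on the ATH diet (log2 fold change -0.50, adjusted p = 0.0772 by limma). Cox7a1, a heart and muscle form, was at 0.86, 1.10, 0.87 and 0.86 on the STD diet and 1.16, 1.26, 0.57 and 0.64 on the ATH diet, so that the ATH diet values lay on both sides of the STD diet values. Its log2 fold change of -0.01 turned positive under other scalings. Cox8b, another heart and muscle form, had -0.45, and Cox4i2, the lung form, had -0.43 with a probe well above background on 3 STD diet and 2 ATH diet arrays.

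Complex V, the ATP synthase, had 15 genes, all detected and all below the median of all genes. Their median log2 fold change was -0.43 (-0.28 relative to all genes), with a range of -0.55 to -0.22. In 7 of 15 all ATH diet arrays lay below all STD diet arrays, against 14.4% of all detected genes. The 5 subunits of the catalytic F1 head had a median of -0.47, and the 10 subunits of the stalks and the membrane part had -0.41. Atp5e, the epsilon subunit, which sits on the central stalk and was counted with F1, fell. It was at 7.51, 7.26, 7.53 and 7.41 on the STD diet and 6.88, 7.14, 6.88 and 6.85 on the ATH diet. ATH diet array 2 was the highest of its group and still below every STD diet array. The log2 fold change was -0.49 ± 0.13 (SE), with an adjusted p of 0.0485 by limma (0.0850 with the replicate block).

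Atp5b, the catalytic beta subunit, was at 8.30, 8.34, 8.19 and 8.16 on the STD diet and 8.08, 7.95, 7.52 and 7.42 on the ATH diet, which gave a difference of -0.51 (adjusted p = 0.0936 by limma). A second Atp5b probe gave -0.54 and passed (adjusted p = 0.0478 by limma), and the third gave -0.52. Atp5a1, the alpha subunit, had -0.44 and did not pass. Atp5g1, Atp5g2 and Atp5g3 encode the same mature subunit c, the rotating ring, from separate genes. Atp5g3 was at 8.45, 8.42, 8.40 and 8.32 on the STD diet and 8.02, 8.12, 7.63 and 7.63 on the ATH diet. Its log2 fold change was -0.55 (adjusted p = 0.0553 by limma), with no overlap between diets. Atp5g1 and Atp5g2 had -0.43 and -0.34, with adjusted p-values of 0.219 and 0.222 by limma, and overlapped between diets.

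Different probes of a gene gave the same sign. In 25 genes with several detected probes, all probes were below 0 in 25 of 25, and the median range between probes of a gene was 0.09. The widest range, 0.81, was in Sdhc, whose second probe, of very low signal, gave -1.24 (adjusted p = 0.0899 by limma). Of 114 detected member probes, 8 were called lower and 1 higher. By gene, 5.25% of all detected genes were called lower and 3.53% higher, and the share over all probes is not given here. The second probe of Sdha passed where the brightest probe of the gene did not (-0.58, adjusted p = 0.0327 by limma).

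The 4 genes that carry a chain prefix without being subunits split in their values. Ndufaf1, an assembly factor of complex I, had a log2 fold change of -0.45 and did not overlap between diets, but did not pass (adjusted p = 0.0817 by limma). Cox7a2l, which takes part in supercomplexes, had -0.18, Atp5s had -0.14 and Cox4nb had -0.11. The accession of the Atp5s probe now names Dmac2l, and that of the Cox4nb probe names Emc8.

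Subunits that the array files under older names, and which the prefixes therefore missed, were also measured. These names were looked up after the member values were seen. Ndufv3 of complex I had a log2 fold change of -0.45, Uqcr10 of complex III had -0.37, and Atp5mpl and Atp5md of complex V had -0.33 each. None passed the test, with adjusted p-values of 0.0971 to 0.254 by limma. A further probe that RefSeq now assigns to Sdha, filed as 1500032O14Rik, stood near 0 at -0.05 (adjusted p = 0.853 by limma).

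Other mitochondrial genes were set beside the chain. The tricarboxylic acid cycle, which feeds the chain with NADH and succinate, had 14 of 14 genes below 0 and a median log2 fold change of -0.40. Of these, 3 fell (21.4%, against 5.25% of all detected genes), namely Fh1, Dlst and Idh3b, and 2 were also called with the replicate block. Fh1, fumarase, had the largest fall, -0.73 ± 0.16 (SE), with an adjusted p of 0.0312 by limma (0.0618 with the replicate block). Assembly factors, which insert cofactors and join subunits, had 29 of 29 genes below 0 and a median of -0.45. Of these 6 fell (20.7%, against 5.25% of all detected genes), and 0 of the 6 were called with the replicate block. Foxred1, a complex I assembly factor, had the largest fall among them at -0.60 (adjusted p = 0.0406 by limma, 0.0629 with the replicate block). The other 5 were Bcs1l, which inserts the Rieske protein into complex III, Cox18 and Cox17, which serve complex IV, and Sitpec and 4930455C21Rik, now named Ecsit and Timmdc1, which serve complex I.

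Mitochondrial ribosomal proteins, which translate the mitochondrially encoded subunits, had a median log2 fold change of -0.27 over 75 genes, with 72 below 0. Of the 75, 5 fell (6.67%, against 5.25% of all detected genes), and 1 of the 5 was also called with the replicate block. That gene, Mrps27, had the largest fall at -0.88 (adjusted p = 0.0178 by limma, 0.0408 with the replicate block). Cytosolic ribosomal proteins, which build the ribosomes of the cytosol, had a median of -0.19 over 80 detected genes, with 77 below 0 and 0 called by limma. Of the 80, 11 had an unadjusted p under 0.05 by limma, against 6339 of 21304 detected genes. Relative to all genes these medians were -0.25 for the cycle, -0.30 for assembly factors, -0.13 for mitochondrial ribosomal proteins and -0.04 for cytosolic ribosomal proteins, against -0.28 for the chain. The differences between these lists, which also differ in signal, were not tested.

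Regulators of mitochondrial biogenesis gave no call by limma, with 13 of 18 detected genes below 0 and a median log2 fold change of -0.22. Of the 18, 7 had an unadjusted p under 0.05 by limma, against 6339 of 21304 detected genes. Ppargc1a, the coactivator PGC-1 alpha, was at 0.44, -0.23, 0.25 and 0.63 on the STD diet and -0.30, -0.19, -0.16 and -0.36 on the ATH diet. The groups overlapped through STD diet array 2, and the log2 fold change was -0.53 (adjusted p = 0.107 by limma). Pprc1, a related coactivator, lay the other way, at 0.11, 0.23, -0.43 and -0.87 on the STD diet and 0.45, 0.61, 1.27 and 0.56 on the ATH diet, without overlap (log2 fold change 0.96, adjusted p = 0.0647 by limma). Esrra, the receptor ERR alpha, had -0.35, and Tfam, which packages mitochondrial DNA and serves its transcription, had -0.35. Gabpa had -0.18 and Nrf1 had 0.34. None of these regulators passed the test.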

How the data were processed

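RNA from 8 mouse livers, 4 per diet, was measured on Agilent 1-color mouse arrays after Cy3 labeling. The authors scanned the arrays with Feature Extraction version 9.5, per the submitters' processing notes, and the deposited scanner output holds background-subtracted spot intensity values that are not scaled between arrays. A further table, which the authors made in GeneSpring, holds deposited log2 values. These equal the log2 processed intensity plus a constant per array and per probe for 100% of 31056 compared probes, within 0.001, and neither the scaling nor the baseline of the table is named in the sources used here.

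Groups follow the labelled diet. Outlier-flagged spots were dropped, spots of a probe were averaged, and the 75th percentile of log2 intensity over 41174 non-control probes was subtracted per array. A probe counted as detected when well above background, positive and significant on at least 3 of 4 arrays of either diet (31063 probes). The diets were compared by limma (3.58.1, under R 4.3.3), using lmFit with eBayes, and the two-sided p-values were adjusted by Benjamini-Hochberg over the detected probes and called at 5%. Summaries and plots used Python version 3.11.15, pandas 2.3.3, numpy 2.4.6 and matplotlib 3.10.9. Genes are represented by their brightest probe. Of 117 member probes, 103 were named by accession in a RefSeq gene table of assembly GRCm38.p6, 12 by symbol and 2 by synonym. Positions of probes come from the array file (mm7), and promoter sequences are RefSeq's (GRCm38.p6).

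Members, lists and tests were chosen with earlier results of these data known. Genes named are core subunits by role, the restricted isoforms, the brightest and the called members of each complex, and the largest called change of each other list. Others were named after their values were seen, as were the ranges of signal. Equal replicate numbers mark equal slide positions. Over probes, the deviations of such arrays from their diet mean had correlations of 0.1003, 0.23, 0.18 and 0.18. Each was over 0.1, so the numbers were treated as pairs and a blocked fit was added. STD diet array 2 and ATH diet array 1, of unequal number, also had 0.18, and the other unequal pairs had -0.25 to 0.08. The comparison was also tested on simulated data (31049 probes): of 100 probes each, limma recovered 40 with a true log2 change of 1 and 1 with a true change of 0.5, and made 2 false calls. So few changed probes make the adjusted threshold stricter than in the real data, so these shares do not carry over. Marker lists for hepatocytes, macrophages, lymphocytes, stellate cells, muscle and brown fat were set beside the members. Kinases and a binding protein that share the prefix of ribosomal proteins were left out of that list. Alternatives covered the background correction, scaling, deposited values, detection filter, test, threshold, probe choice, membership, the block and each array left out. Genes without a member prefix were not analysed here beyond these lists, and 1 gene that the rule names is not reported here.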

Additional observations from a re-analysis of the deposited data

Results flagged for a closer look

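In 3 of 74 groups of 4 arrays, the farthest array stood apart from the others by a larger share of the range than Dixon's 95% critical value, where chance gives about 3.7. In Cyc1 on the STD diet, array 3 was highest at 6.48, with the others from 6.36 to 6.37. In Cox7a1 on the STD diet, array 2 was highest at 1.10, with the others from 0.86 to 0.87. In Atp5e on the ATH diet, array 2 was highest at 7.14, with the others from 6.85 to 6.88.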

How the results depend on the processing

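The 5 members called lower and the 1 called higher numbered 4 to 6 and 1 with the percentile taken over spots, the deposited log2 table, detection on all arrays, the mean over probes, and both narrower memberships. The count called lower was 20 with normexp, 1 with median scaling, 1 without a detection filter, and 0 with quantile normalization, spike-in scaling or no scaling. It was 0 with the Methods' test and 0 at a 1% threshold. The count called higher was 2 without scaling (Cox6a2 and Ndufa8), and 0 without a detection filter, with the Methods' test and at 1%. With the replicate block, which pairs arrays by position, both counts were 0. When 1 array was left out, the count called lower ran from 0 to 15 and the count called higher from 0 to 1. The share of all genes called under each of these settings is not given here, so the counts have no background beside them. The median member was at 0.020 without scaling, and when 1 array was left out it ran from -0.53 to -0.32 (-0.34 to -0.20 relative to all genes). Relative to all genes it was -0.08 with quantile normalization against -0.28 as reported.

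Some named members changed sign. Without scaling the log2 fold change was 0.012 for Sdhc, 0.023 for Sdhd, 0.30 for Cycs, 0.078 for Cox4i1, 0.15 for Cox5a, 0.020 for Cox5b, 0.0057 for Atp5a1, 0.015 for Cox4i2, 0.43 for Cox7a1, 0.082 for Ndufa13 and 0.0072 for Uqcrq. Quantile normalization gave 0.16 for Cycs, 0.025 for Cox5a and 0.025 for Cox7a1, and spike-in scaling gave 0.16, 0.016 and 0.30. Cox7a1 was also at 0.0048 with normexp, 0.061 with median scaling, and between -0.13 and 0.098 when 1 array was left out (0.046 without STD diet array 2, 0.098 and 0.075 without ATH diet arrays 3 and 4). Median, spike-in and no scaling differ from the reported scaling by a constant added to every gene of an array. The cause of the other changes was not tested. The 4 arrays per diet limit what can be called. In the simulated data a change of 0.5, wider than that of the median member, was recovered in 1 of 100 probes. Those data held 100 changed probes of each size among 31049, fewer than the 1118 genes called lower and 753 called higher here. The adjusted threshold was therefore stricter there, and the share recovered cannot be carried over to these data.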
